A study of Homo sapiens with 6 samples.

Results

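The genes described here belong to the signaling chain that runs from the erythropoietin (EPO) receptor through the kinase JAK2 to the transcription factors STAT5A and STAT5B, together with inhibitors and target genes that this chain switches on. They were chosen by name from the deposited gene tables: JAK2, STAT5A, STAT5B, CISH, SOCS1, SOCS2, SOCS3, PIM1, ID1 and FAM132B, 10 of the 62754 genes listed. The tables hold 9 of the 10 under these names, and FAM132B was found as ERFE, its current symbol, through the RefSeq list of synonyms. The level of each gene was measured as TPM, the share of a gene among all transcripts of a library after correction for transcript length, so that levels of different genes can be set side by side.

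RNA was sequenced from HUDEP-2 cells, a line of immortalised human erythroid progenitors, 72 h after transduction with a lentivirus. The MEN1sh2 group (n = 3 biological replicates, genotype given as MEN1 knockdown) carried an shRNA against MEN1, which encodes menin, a subunit of the MLL1 histone methyltransferase complex. The Controlsh group (n = 3 biological replicates, genotype given as WT) carried a non-targeting shRNA. The medium of both groups contained 3 units per ml of EPO and 50 ng per ml of stem cell factor. Dexamethasone (1e-06 M) was present too, as was doxycycline (1 µg per ml), and all cells were selected with puromycin at 2 µg per ml for 48 h from 24 h after infection. EPO was thus present in every library, and the comparison is between shRNAs and not between EPO doses. The design has 1 cell line and 1 hairpin against MEN1, so an off-target effect of that hairpin cannot be told apart from the loss of MEN1.

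EPO is the hormone that keeps red cell precursors alive and dividing. When it binds its receptor EPOR, the attached kinase JAK2 phosphorylates STAT5A and STAT5B, which enter the nucleus and activate target genes. Among these targets are CISH and the SOCS genes, whose proteins bind the receptor or JAK2 and dampen the signal, the survival kinase PIM1, and ERFE, a secreted hormone that lowers hepcidin in the liver and so releases iron for hemoglobin. ID1, an inhibitor of basic helix-loop-helix transcription factors, is a target of BMP signaling and has also been described as an EPO-responsive gene. Much of the signal runs through protein phosphorylation, which RNA levels do not measure.

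CISH and PIM1 represent the feedback and the survival arm of this chain, and the 250 bases before the transcription start of each are shown because STAT5 binds the motif TTCNNNGAA, which reads the same on both strands. The sequences are from the RefSeq promoter table for GRCh38.p14, 5′ to 3′ on the strand of the gene, with matches to TTCNNNGAA in capitals. CISH lies on the minus strand at chr3:50611775-50612024 and PIM1 on the plus strand at chr6:37169902-37170151.
CISH: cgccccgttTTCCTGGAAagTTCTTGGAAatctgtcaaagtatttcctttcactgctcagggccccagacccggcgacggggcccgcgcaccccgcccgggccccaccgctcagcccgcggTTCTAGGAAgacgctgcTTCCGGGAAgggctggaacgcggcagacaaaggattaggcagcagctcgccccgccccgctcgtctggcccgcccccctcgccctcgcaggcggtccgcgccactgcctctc
PIM1: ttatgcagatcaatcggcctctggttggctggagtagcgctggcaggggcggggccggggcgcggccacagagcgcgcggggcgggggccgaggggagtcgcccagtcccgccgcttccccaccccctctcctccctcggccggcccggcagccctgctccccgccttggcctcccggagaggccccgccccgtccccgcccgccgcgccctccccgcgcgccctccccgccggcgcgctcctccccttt
CISH held 4 matches, beginning 241, 230, 129 and 112 bases before the start, and PIM1 held none. Windows of 300 bases (250 before to 50 after a start) were in the table for 9 of the 10 genes, 15 windows in all, and SOCS2 had no entry. CISH was the only 1 of the 9 with a match. Of all 35116 windows in the table, 7.66% held the motif at least once and 7 windows, of 6 genes, held it at least 4 times. A second motif, AGATAA, a form of the site bound by the erythroid factor GATA1, was searched on both strands and was in no window of the 9 genes, against 10.3% of all windows. These matches describe the letters of the windows and not binding in these cells.

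The libraries were first checked against their labels. MEN1 was at 6.29, 6.44 and 6.88 TPM in the MEN1sh2 libraries and at 41.2, 39.6 and 37.1 TPM in the Controlsh libraries, so that 16.6% of the control level remained (limma log2 fold change -2.42, adjusted p 8.5e-06). Erythroid identity was present in all libraries: all 9 erythroid markers examined were above 1 TPM. Their summed level was 75301 to 83077 TPM with MEN1sh2 and 44920 to 49051 TPM with Controlsh. HBB and HBA1 made up most of these sums, at means of 50170 and 23557 TPM with MEN1sh2 and 30237 and 12208 TPM with Controlsh. Of those 9, 6 passed the test as higher with MEN1sh2 (among them HBB, HBA1, SLC4A1, ALAS2 and TFRC) and 0 as lower, while KLF1, GATA1 and EPOR did not pass. HBA1 shares reads with its near-identical copy HBA2, and EPOR and TFRC also stand in the pathway lists below. Of 5 megakaryocyte markers only ITGA2B passed 1 TPM, and PF4 and PPBP were at 0; the sum was 16.6 to 21.3 TPM with MEN1sh2 and 31.8 to 36.7 TPM with Controlsh. Of 4 mast cell markers TPSAB1 made up nearly all of a sum of 422 to 505 TPM with MEN1sh2 and 577 to 750 TPM with Controlsh, and CPA3, MS4A2 and HDC stayed at or below 2.55 TPM. The 5 monocyte and granulocyte markers summed to 0.396 to 0.964 TPM and 2.13 to 2.40 TPM, and the 4 lymphoid markers to at most 0.221 TPM. Each library held 18400000 to 35800000 read pairs, as inferred from coverage and FPKM. The part of these markers in the results below was not tested; for the called genes among the 10, values computed without globin and mitochondrial genes are given.

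The 10 genes spanned a wide range of levels. In the control libraries PIM1 was the most abundant at 367 ± 13.2 TPM (mean ± SD, n = 3 here and below), followed by STAT5A at 161 ± 10.6 and STAT5B at 77.1 ± 5.56. SOCS2 (61.6 ± 11.1), ERFE (61.6 ± 7.20) and CISH (43.9 ± 27.8) came next and overlapped one another. ID1 (17.2 ± 3.13) and JAK2 (16.4 ± 0.719) could not be ordered beyond their spread either. SOCS1 was at 4.80 ± 0.810 TPM and SOCS3 was lowest at 0.413 ± 0.127 TPM.

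**Figure D1:**
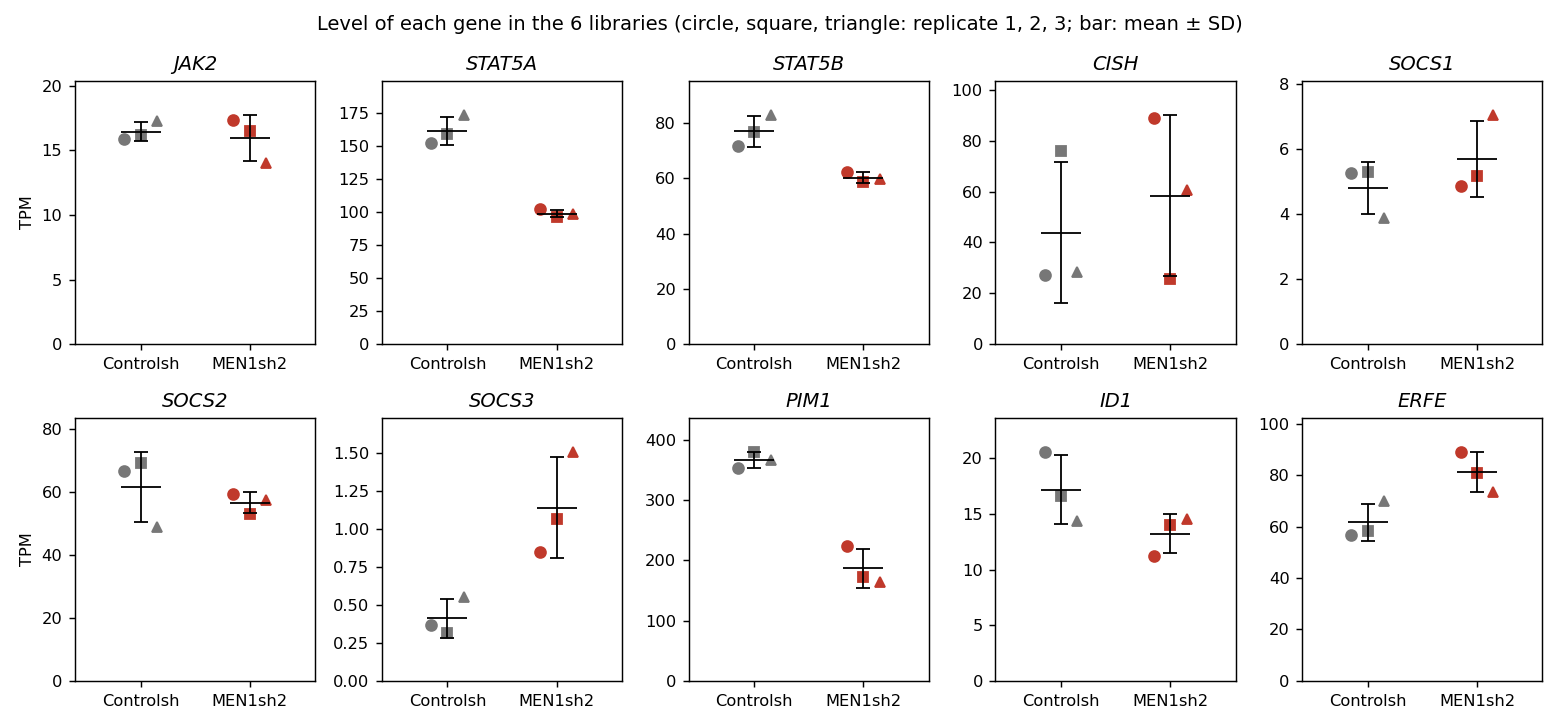
TPM of each of the 10 genes (vertical axes, each starting at 0) in the Controlsh and MEN1sh2 libraries, with a symbol per replicate and a bar for the mean ± SD. The groups do not overlap for STAT5A, STAT5B and PIM1, which are lower with MEN1sh2, and for SOCS3 and ERFE, which are higher, while CISH spreads from 25.6 to 88.7 TPM within the MEN1sh2 group alone. Of all tested genes, 61.8% have groups that do not overlap.

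Testing was done on genes that reached 1 TPM in 3 or more of the 6 libraries, with limma on log2(TPM + 1), and a gene was called when its p adjusted over all 14294 tested genes (Benjamini-Hochberg, two-sided) was under 0.05. SOCS3 did not reach the filter and the other 9 genes were tested. Of these 9, 4 were called: STAT5A, STAT5B and PIM1 fell and ERFE rose. Across all tested genes 53.6% were called, 22.1% as higher and 31.5% as lower, so a count of 4 in 9 is near the background and is not a result about this group of genes. The median log2 fold change of the 9 was -0.10, beside -0.07 over all tested genes, and 0 of the 9 changed by 2-fold or more on this scale. In these bulk samples, fewer cells of a type and less RNA per cell cannot be told apart.

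**Figure D2:**
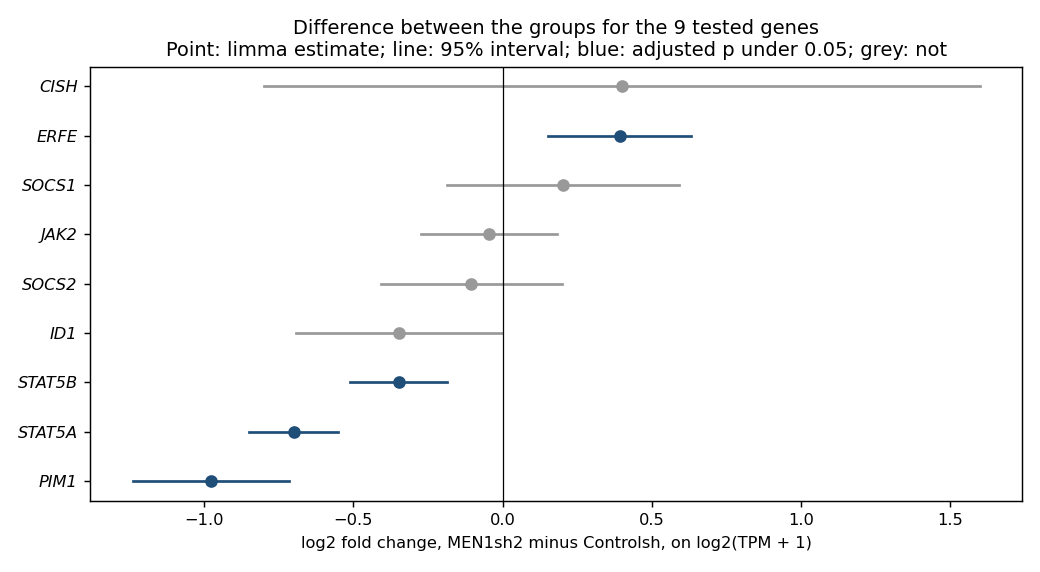
Log2 fold change (horizontal axis, MEN1sh2 minus Controlsh, on log2(TPM + 1)) of the 9 tested genes with its 95% interval from limma; blue marks an adjusted p under 0.05. PIM1, STAT5A and STAT5B lie wholly below 0 and ERFE wholly above, ID1 ends just below 0, at -0.0020, without being called, and the interval of CISH is the widest, from -0.80 to 1.6.

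JAK2, the kinase at the head of the chain (ENSG00000096968, chromosome 9, 4984390 to 5129948, plus strand), was at 17.4, 16.5 and 14.0 TPM in MEN1sh2 replicates 1, 2 and 3 and at 15.9, 16.2 and 17.2 TPM in Controlsh replicates 1, 2 and 3. The groups overlapped, with the highest and the lowest library both in the MEN1sh2 group. The log2 fold change was -0.04 (95% interval -0.27 to 0.18, adjusted p 0.730 in limma), and its sign turned under other scalings, to 0.04 with median-of-ratios scaling, 0.09 with quantile normalization and 0.02 without globin and mitochondrial genes. EPOR, the receptor that JAK2 is attached to, was likewise at similar levels, 104 ± 7.34 TPM with MEN1sh2 and 103 ± 3.81 TPM with Controlsh (log2 fold change 0.02, 95% interval -0.14 to 0.18, adjusted p 0.859). It moved to 0.10 with median-of-ratios scaling and 0.08 without globin and mitochondrial genes, and its sign turned with array weights, to -0.01, in each case without a call. The intervals bound a change of either gene on this scale and do not show that the levels are equal.

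Both STAT5 genes were lower with MEN1sh2. STAT5A (ENSG00000126561, chromosome 17, 42287547 to 42311943, plus strand) was at 102, 96.0 and 98.6 TPM in MEN1sh2 replicates 1, 2 and 3 and at 153, 159 and 173 TPM in the controls. All 3 MEN1sh2 libraries lay far below all 3 controls, at 61.2% of the control mean. This is a log2 fold change of -0.70 with an SE of 0.0643 (limma, adjusted p 0.00011). Computed without globin and mitochondrial genes it was -0.63 (adjusted p 0.000176).

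STAT5B (ENSG00000173757, chromosome 17, 42199176 to 42288633, minus strand) was at 62.5, 58.5 and 59.8 TPM with MEN1sh2 and at 71.7, 76.8 and 82.8 TPM in the controls. The groups were again apart, but by less, with 78.2% of the control mean remaining. The difference was -0.35 on the log2 scale with an SE of 0.0701 (limma, adjusted p 0.00415), and -0.28 without globin and mitochondrial genes (adjusted p 0.0114). The 2 genes stand head to head and their spans share 1087 bases on opposite strands. Whether the counting used strand is not given in the sources used here, so reads from the shared stretch may have been given to either gene.

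The summed level of the 2 STAT5 genes was 159 ± 5.00 TPM with MEN1sh2 and 239 ± 16.1 TPM with Controlsh. STAT5A made up 62.0%, 62.1% and 62.3% of that sum in the MEN1sh2 libraries and 68.0%, 67.4% and 67.6% in the controls. The share of STAT5A was therefore lower in every MEN1sh2 library than in every control, with an SD of 0.127 and 0.318 percentage points within the groups. This share is given as a description, with no test.

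**Figure D3:**
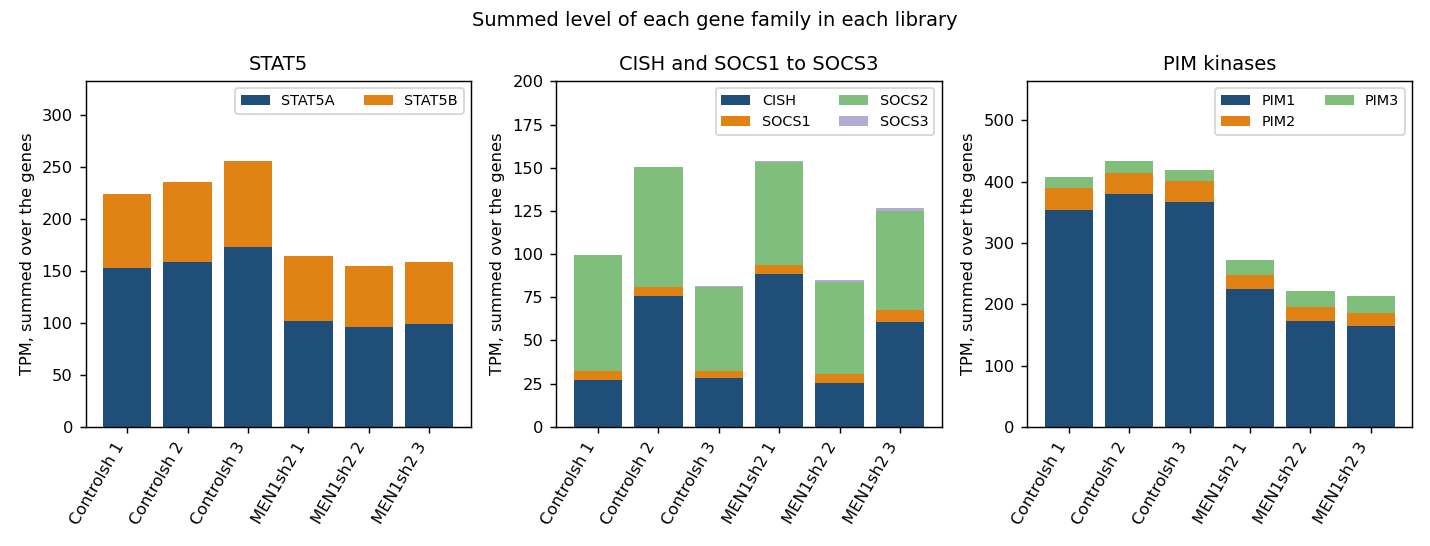
Stacked bars of TPM (vertical axes from 0) in each library for STAT5A and STAT5B, for CISH with SOCS1 to SOCS3, and for the PIM kinases. The STAT5 sum is 159 TPM on average with MEN1sh2 against 239 TPM with Controlsh, the PIM sum 235 against 420 TPM, and the CISH and SOCS sum varies within both groups.

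Of the 3 tested feedback inhibitors, CISH, SOCS1 and SOCS2, 0 were called in limma, beside 53.6% of all tested genes, and 0 had an unadjusted p under 0.05. CISH, which binds the phosphorylated EPO receptor (ENSG00000114737, chromosome 3, 50606489 to 50611774, minus strand), was at 88.7, 25.6 and 60.6 TPM in MEN1sh2 replicates 1, 2 and 3 and at 27.4, 75.9 and 28.3 TPM in Controlsh replicates 1, 2 and 3. MEN1sh2 replicate 1, Controlsh replicate 2 and MEN1sh2 replicate 3 were high, and the other 3 libraries lay between 25.6 and 28.3 TPM, so high and low libraries occurred in both groups. The highest library was 3.47 times the lowest among MEN1sh2 libraries and 2.78 times among controls. The within-group SD of CISH was 0.86 on the log2 scale, higher than that of 99.3% of tested genes.

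With that spread, the CISH log2 fold change of 0.40 (95% interval -0.80 to 1.6, adjusted p 0.545 in limma) was not distinguishable from 0. It went from 0.02 without MEN1sh2 replicate 1 to 0.89 without MEN1sh2 replicate 2 and was 0.87 without Controlsh replicate 2, in each case without a call. It was 0.15 without Controlsh replicate 1 and 0.18 without Controlsh replicate 3. The same libraries stood out in read coverage divided by library depth, at 18.9, 7.26 and 16.5 with MEN1sh2 and 6.67, 16.0 and 7.59 with Controlsh. Coverage comes from the same reads as TPM, so it is not a separate measurement. MAPKAPK3, whose span overlaps the start of CISH by 255 bases on the other strand, did not show this pattern, at 66.5, 68.6 and 66.1 TPM with MEN1sh2 and 96.0, 101 and 103 TPM with Controlsh. GENCODE v29 lists 3 CISH transcripts, 2 of 2043 and 2167 bases that code for protein and 1 of 5042 bases with a retained intron. The tables give 1 value per gene, and how reads were divided among these transcripts was not analysed here.

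**Figure D4:**
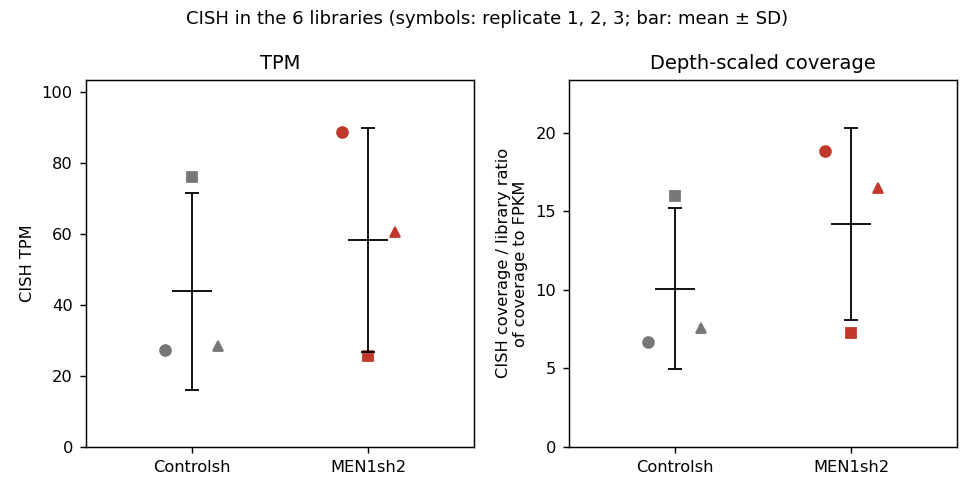
CISH in each library as TPM (left) and as coverage divided by the library's ratio of coverage to FPKM (right), both axes from 0, with a symbol per replicate and the mean ± SD. On both scales, which come from the same reads, Controlsh replicate 2 and MEN1sh2 replicates 1 and 3 are high and the other 3 libraries are low.

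The 3 tested genes whose pattern over the 6 libraries was closest to that of CISH, by the distance between centred log2(TPM + 1) values, were MIR186 (distance 0.65), HCG25 (0.84) and SNORA24 (0.95), where the CISH profile itself has a length of 1.79. They are a microRNA gene, a long noncoding gene and a small nucleolar RNA gene, none above 4.12 TPM in any library. MIR186, for example, was at 3.3, 0.979 and 2.32 TPM with MEN1sh2 and at 0.872, 2.33 and 0.778 TPM with Controlsh. MIR186 thus passed the filter only through MEN1sh2 replicates 1 and 3 and Controlsh replicate 2, the same libraries in which CISH was high.

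SOCS1, an inhibitor of JAK kinase activity (ENSG00000185338, chromosome 16, 11254417 to 11256204, minus strand), was at 4.87, 5.18 and 7.03 TPM with MEN1sh2 and at 5.25, 5.28 and 3.86 TPM with Controlsh. The groups overlapped, and the log2 fold change of 0.20 (95% interval -0.18 to 0.59, adjusted p 0.340 in limma) was within the replicate spread. SOCS1 lies inside the span of RMI2 on the other strand, which was at 15.1 to 21.3 TPM over the 6 libraries. Leaving out MEN1sh2 replicate 3 or Controlsh replicate 3 brought the log2 fold change of SOCS1 to 0.06 or 0.08, and depth-scaled coverage gave 0.06.

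SOCS2, best known for restraining growth hormone signaling (ENSG00000120833, chromosome 12, 93569814 to 93583487, plus strand), was at 59.5, 53.0 and 57.4 TPM with MEN1sh2 and at 66.8, 69.1 and 48.9 TPM with Controlsh. Controlsh replicate 3 lay below all MEN1sh2 libraries, and the other 2 controls lay above them. The log2 fold change was -0.10 (95% interval -0.41 to 0.20, adjusted p 0.532 in limma). Without Controlsh replicate 3 it was -0.26 and passed the threshold (adjusted p 0.0334), and with depth-scaled coverage in place of TPM its sign turned, at 0.0054. SOCS2-AS1, which overlaps the start of SOCS2 on the other strand, was at 2.25 to 4.23 TPM.

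SOCS3 (ENSG00000184557, chromosome 17, 78356778 to 78360077, minus strand), an inhibitor induced by many cytokines, was at 0.852, 1.07 and 1.51 TPM with MEN1sh2 and at 0.367, 0.315 and 0.556 TPM with Controlsh. All 3 MEN1sh2 libraries lay above all 3 controls, and the group means differed 2.77-fold, but at a read coverage of only 1.39 to 4.00 reads per base. SOCS3 did not reach the filter. When all genes with any signal were tested instead, its log2 fold change was 0.59 (SE 0.176) with an adjusted p of 0.0718 in limma, so it was not called. Beside this, 61.8% of all tested genes had groups that did not overlap.

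Within the sum of CISH, SOCS1, SOCS2 and SOCS3, which was 122 ± 34.9 TPM with MEN1sh2 and 111 ± 35.8 TPM with Controlsh, CISH and SOCS2 together made up most of the transcripts. CISH alone ranged from 27.4% to 57.6% of the sum, and SOCS2 from 38.6% to 66.9%, with both extremes of each in different groups. SOCS3 made up at most 1.26%.

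PIM1 showed the largest difference among the called genes of this group. PIM1 (ENSG00000137193, chromosome 6, 37170152 to 37175428, plus strand), a constitutively active serine/threonine kinase that is made in response to STAT5 and promotes survival, was at 224, 173 and 165 TPM in MEN1sh2 replicates 1, 2 and 3 and at 353, 380 and 367 TPM in the controls. MEN1sh2 replicate 1 lay closer to the controls than replicates 2 and 3 did, and the groups were well apart, with 51.1% of the control mean remaining. On the log2 scale the fall was -0.98 with an SE of 0.112 (limma, adjusted p 0.00029), and -0.91 without globin and mitochondrial genes (adjusted p 0.000413).

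The 2 related kinases moved in opposite directions. PIM2 fell from 35.3 ± 0.664 to 22.7 ± 1.27 TPM (limma log2 fold change -0.61, adjusted p 0.00028), and PIM3 rose from 18.1 ± 1.18 to 25.4 ± 1.91 TPM (0.47, adjusted p 0.00294). PIM1 remained the most abundant of the 3 in every library. Its share of the PIM sum was 82.6%, 77.9% and 77.3% with MEN1sh2 and 86.7%, 87.5% and 87.6% with Controlsh. The genes closest in pattern to PIM1 over the 6 libraries were PEG3 (distance 0.072, where the PIM1 profile has a length of 1.25), IPO5 (0.074) and STK32B (0.077). The closest to JAK2 were STEAP3 (0.084), NACC1 (0.086) and TSPYL5 (0.093), beside a length of 0.24 for JAK2 itself.

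ERFE was the 1 tested gene of the group that rose. ERFE (ENSG00000178752, chromosome 2, 238158970 to 238168900, plus strand) was at 88.9, 80.8 and 73.4 TPM with MEN1sh2 and at 56.8, 58.1 and 69.9 TPM with Controlsh. MEN1sh2 replicate 3 lay only slightly above Controlsh replicate 3, and the other libraries were farther apart. The mean with MEN1sh2 was 1.32 times that of the controls (log2 fold change 0.39, SE 0.103, adjusted p 0.0138 in limma), and without globin and mitochondrial genes the log2 fold change was 0.46 (adjusted p 0.00759). The call was lost when low genes were not filtered out (adjusted p 0.0529) and with depth-scaled coverage (log2 fold change 0.43, adjusted p 0.0541). Its adjusted p lay between 0.00601 and 0.0541 across every alternative run.

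ID1 (ENSG00000125968, chromosome 20, 31605283 to 31606515, plus strand) was at 11.2, 14.0 and 14.5 TPM with MEN1sh2 and at 20.6, 16.6 and 14.4 TPM with Controlsh. Controlsh replicate 3 lay just below MEN1sh2 replicate 3, and this was the overlap between the groups. The log2 fold change of -0.35 (95% interval -0.69 to -0.0020, unadjusted p 0.0490) did not pass after adjustment (0.0837 in limma). Without Controlsh replicate 3 it was -0.46 and passed (adjusted p 0.0411), and without Controlsh replicate 1 it was -0.22.

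The related ID2 was far more abundant and fell from 463 ± 130.3 to 201 ± 46 TPM (limma log2 fold change -1.19, adjusted p 0.00458). ID3 stayed below the filter, at 0.383 ± 0.131 TPM with MEN1sh2 and 0.0700 ± 0.121 TPM with Controlsh. Of the 11 ID family, SMAD and BMP receptor genes examined beside ID1, 7 were tested, 2 rose and 4 fell, with a median log2 fold change of -0.29. Over all tested genes 22.1% were called as higher and 31.5% as lower, with a median of -0.07. The count in this list was not tested against those shares. SMAD1, which carries BMP signals, fell from 11 ± 0.511 to 4.56 ± 1.29 TPM (-1.13, adjusted p 0.00088). On depth-scaled coverage the value was -0.15 and the call was kept (adjusted p 0.00367 in limma). Coverage is on a lower scale than TPM, so the sizes of the 2 fold changes are not like for like. The BMP receptor ACVR1 rose from 2.39 ± 0.145 to 4.53 ± 1.05 TPM (0.69, adjusted p 0.00985). It was also called on depth-scaled coverage (0.28, adjusted p 0.0064). SMAD4, the shared partner of the SMADs, rose from 23.8 ± 1.88 to 28.9 ± 2.61 TPM (0.27, adjusted p 0.0417), a call that was lost under 8 of 18 alternatives.

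The wider pathway was examined through 5 lists of 79 genes in all, of which 72 were tested. Of these, 48 (66.7%) were called, 22 as higher (21 without BCL6, described below) and 26 as lower, with a median log2 fold change of -0.0034, beside 53.6% and -0.07 over all tested genes.

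Among 8 other JAK and STAT genes, 6 were tested, 2 rose and 1 fell, and the median log2 fold change was 0.09. That is 50.0% called, beside 53.6% of all tested genes. JAK1, a kinase used by interferon and interleukin receptors, rose from 57.3 ± 2.87 to 90.0 ± 6.04 TPM (limma log2 fold change 0.64, adjusted p 0.00026). STAT3, which lies next to STAT5A on chromosome 17, fell from 77.1 ± 2.41 to 68.7 ± 1.58 TPM (-0.16, adjusted p 0.0390). The STAT3 call was lost under 11 of 18 alternatives, among them FPKM, median-of-ratios scaling, quantile normalization and TPM without globin and mitochondrial genes, with an adjusted p of 0.0660 to 0.247. It was kept with depth-scaled coverage (-0.24, adjusted p 0.0256).

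Among the 24 receptors, adaptors and kinases, 23 were tested, 2 rose, 8 fell and 13 were not called, around a median of -0.0023. The called share was 43.5%, beside 53.6% of all tested genes. CSF2RB, the shared beta chain of the IL-3, IL-5 and GM-CSF receptors, fell from 87.5 ± 3.93 to 25.9 ± 0.682 TPM (limma log2 fold change -1.72, adjusted p 9.4e-06). VAV1, an exchange factor of blood cells, fell from 19.2 ± 0.113 to 7.70 ± 0.921 TPM (-1.22, adjusted p 7.7e-05). It was also called on the lower scale of depth-scaled coverage (-0.34, adjusted p 0.00033). The exchange factor SOS1, which links receptors to RAS, rose from 22.8 ± 3.39 to 32.3 ± 1.68 TPM (0.50, adjusted p 0.00689). The adaptor GAB1 rose from 21.3 ± 0.844 to 25.3 ± 1.36 TPM (0.24, adjusted p 0.0288), but the call was lost under 6 of 18 alternatives.

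All 18 genes listed as other inhibitors of the pathway were tested, of which 6 rose, 8 fell and 4 were not called, with a median of -0.16. Called genes made up 77.8% of this list, beside 53.6% of all tested genes, a difference that was not tested. The list counts PTPN11, 1 of the 6 that rose, whose place as an inhibitor is not settled here. SH2B3, also named LNK, an adaptor that restrains JAK2, rose from 30.7 ± 1.07 to 53.0 ± 5.83 TPM (limma log2 fold change 0.76, adjusted p 0.00033). PTPN6, the phosphatase SHP-1 that acts on the EPO receptor and JAK2, fell from 56.9 ± 8.02 to 24.7 ± 3.45 TPM (-1.17, adjusted p 0.00024). SOCS6 rose from 11.1 ± 0.576 to 16.2 ± 2.16 TPM (0.50, adjusted p 0.00673). It was also called on the lower scale of depth-scaled coverage (0.27, adjusted p 0.0161). SPRED2, an inhibitor of the RAS branch, fell from 27.2 ± 0.452 to 13.5 ± 0.981 TPM (-0.96, adjusted p 7.7e-05). Its call was kept on depth-scaled coverage too (-0.39, adjusted p 0.00039).

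**Figure D5:**
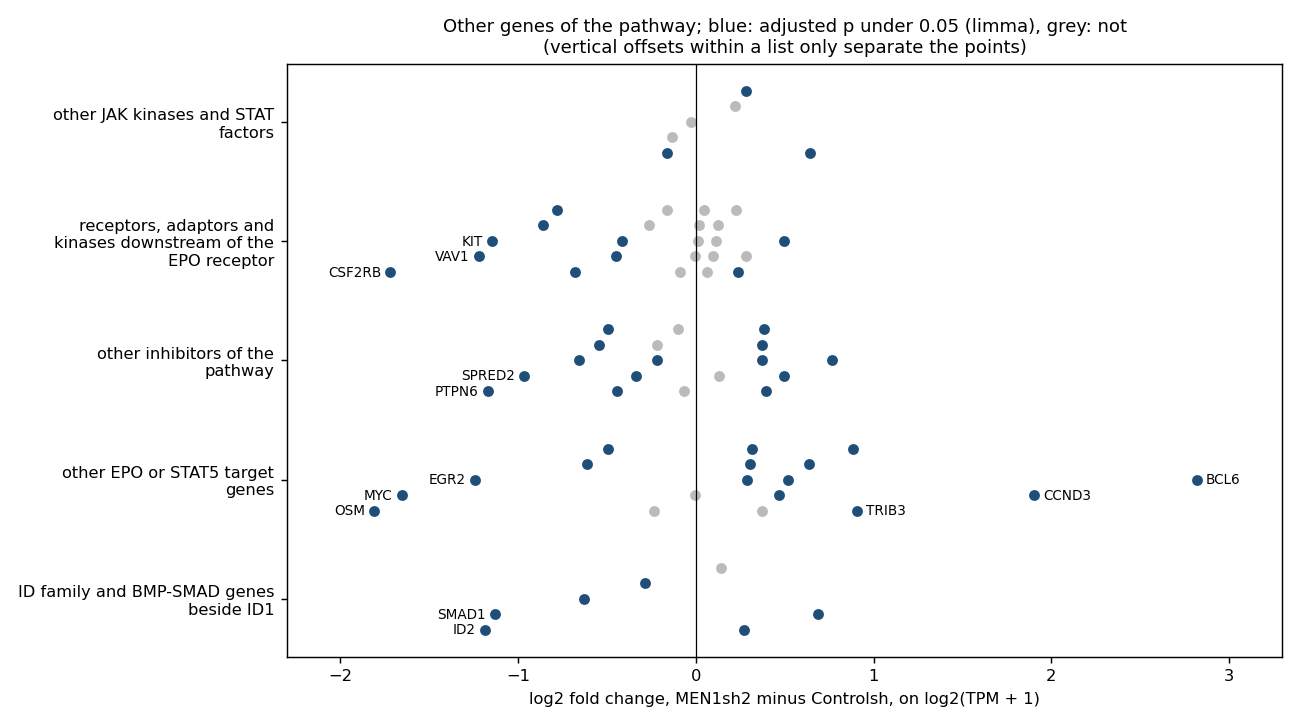
Log2 fold change (horizontal axis) of the 72 tested genes of the 5 pathway lists, 1 row per list and 1 point per gene; blue points have an adjusted p under 0.05. Every list has called genes on both sides of 0, from OSM at -1.81 to CCND3 at 1.90, and the point farthest right is BCL6, which passed the filter on low values only through the MEN1sh2 libraries.

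Of 18 other genes described as EPO or STAT5 targets, a list drawn up with earlier results of these data known, all were tested, 10 were called as higher and 5 as lower, with a median of 0.31. Over all tested genes, 22.1% were called as higher and 31.5% as lower, with a median of -0.07. BCL6, a repressor gene, passed the filter only through the MEN1sh2 libraries, and without it the list had 9 higher, 5 lower and a median of 0.31. BCL2L1, which encodes the survival protein BCL-XL, rose from 99.1 ± 9.34 to 122 ± 3.57 TPM (limma log2 fold change 0.31, adjusted p 0.0118). TFRC, the transferrin receptor, rose from 2486 ± 276 to 3027 ± 86.8 TPM (0.29, adjusted p 0.0232), a call lost when low genes were kept (adjusted p 0.119) and on leaving out any 1 of MEN1sh2 replicates 1 and 3 and Controlsh replicates 1 and 2. With quantile normalization the log2 fold change of TFRC was 0.52. The cyclin gene CCND3 rose from 198 ± 11.1 to 746 ± 79.7 TPM (1.90, adjusted p 1.7e-05). BCL6 was at 6.83, 10.4 and 14.2 TPM with MEN1sh2 and at 0.312, 0.762 and 0.664 TPM with Controlsh, given as a description.

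MYC fell from 232 ± 6.52 to 74.1 ± 15.4 TPM (limma log2 fold change -1.65, adjusted p 6.4e-05). OSM, which encodes the cytokine oncostatin M and is a direct STAT5 target, fell from 28.3 ± 2.51 to 7.42 ± 1.35 TPM (-1.81, adjusted p 4.9e-05).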

How the data were processed

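Each of the 6 libraries has a deposited table of 62754 genes. The labels' protocols describe poly(A)-selected RNA and a strand-specific kit. The submitters' processing notes name Trimmomatic, FastQC, STAR 2.7.1a, Picard 2.20.4, StringTie 2.0.4 and the build hg38, and the strand setting is not given in the sources used here. TPM and FPKM, both corrected for length and library size, are the authors' values per the file headers. The deposited coverage is a signal of reads per base, not scaled for depth. Negative residues next to 0 in 2 rows of Controlsh replicate 2 were set to 0. Of the rows in GENCODE v29, 99.83% overlapped their GRCh38 position there.

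Depth was inferred from the ratio of coverage to FPKM in single-transcript genes, which gives aligned bases, divided by 302 bases per pair. TPM holds no counts, so no count model was fitted. limma 3.58.1 in R 4.3.3 (lmFit, eBayes with trend) was fitted to log2(TPM + 1) of 14294 genes at 1 TPM or more in at least 3 libraries. Adding 1 understates changes of low genes. The code was also run on simulated data with independent noise and few changed genes. That setting differs from these data, so the run checks the code and not the fit of the method to them. For a single gene, an exact permutation of 3 against 3 libraries cannot give a p below 0.1. The members and lists were chosen with earlier results of these data known. Named genes are all members, MEN1, 12 preset pathway genes, and in each list up to 2 largest called rises and falls without overlap, plus genes closest to CISH, PIM1 and JAK2. MAPKAPK3, RMI2 and SOCS2-AS1 were added as overlapping genes, ID3 although untested, after their values were seen. Alternatives covered scaling, pseudocount, filter, variance model, replicate block and left-out libraries. Depth-scaled coverage was also fitted after adding 1 and taking log2. It lay below TPM, for STAT5B in MEN1sh2 replicate 3 at 5.86 against 59.8 TPM. Adding 1 therefore weighs more on coverage than on TPM. The log2 fold changes on coverage were still not always smaller. STAT5A was at -0.71 against -0.70 on TPM and ERFE at 0.43 against 0.39, while PIM1 was at -0.86 against -0.98. How far adding 1 accounts for such differences was not tested. Protein sequences were not used here. Python 3.11.15, pandas 2.3.3 and matplotlib 3.10.9 made the summaries and figures. Some genes that the naming rule selects are not reported here.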

Additional observations from a re-analysis of the deposited data

How the results depend on the processing

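Of 162 comparisons of the 9 tested genes with an alternative, 153 kept direction and side of the threshold, and so did 416 of 449 for MEN1 and the other named genes. Counts of called genes stayed within 1.5 times the reported ones, with 3 of the 9 called without the filter or with coverage. The share of called genes that were higher was 41.2%, and at most 49.5% with median-of-ratios scaling. JAK2 turned to 0.038 with median-of-ratios scaling, 0.089 with quantile normalization, 0.019 without globin and mitochondrial genes and 0.041 without MEN1sh2 replicate 3. SOCS2 turned to 0.0054 with depth-scaled coverage, the 1 setting chosen after the data were seen. ERFE kept 0.39 without the filter and 0.43 with coverage but was not called. EPOR turned to -0.014 with array weights, -0.033 without MEN1sh2 replicate 1 and -0.013 without Controlsh replicate 2; it was 0.068 without MEN1sh2 replicate 2 and highest, at 0.10, with median-of-ratios scaling. The causes were not tested.

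With 1 library left out, log2 fold changes ran from -1.11 to -0.89 for PIM1, -0.74 to -0.65 for STAT5A, -0.40 to -0.30 for STAT5B, 0.32 to 0.49 for ERFE, -0.46 to -0.22 for ID1, -0.26 to -0.014 for SOCS2, 0.065 to 0.29 for SOCS1, 0.017 to 0.89 for CISH and -0.11 to 0.041 for JAK2. Called members numbered 4 to 6 of 9, the 6 without Controlsh replicate 3, when ID1 and SOCS2 passed.

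Deviations from the group means of libraries with the same replicate number correlated at 0.017, -0.027 and -0.012, and 2 of 6 libraries correlated best with their own number. These values show no shared effect of the numbers. With 3 libraries per group they cannot tell whether libraries of the same number were prepared together, which the labels do not state. With the replicate block 7012 genes were called in place of 7657, 4 of them members, and 41 pathway genes in place of 48. Among the members, SOCS1 and SOCS3 had the lowest coverage, at 10.3 to 23.0 and 1.39 to 4.00 reads per base. The effect of depth on their values was not tested.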
